A study of Rattus norvegicus with 6 samples.

Results

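Transcripts of 5 extracellular matrix genes were followed in the rat esophagus after mechanical injury. They were fibronectin (Fn1, ENSRNOG00000014288), the matricellular proteins osteonectin (Sparc, ENSRNOG00000012840) and periostin (Postn, ENSRNOG00000012660), and the small leucine-rich proteoglycans decorin (Dcn, ENSRNOG00000004554) and lumican (Lum, ENSRNOG00000004610). The genes were taken by Ensembl identifier from a table of 32623 rat genes, and all 5 were among the 14481 genes with enough counts to be tested. The symbols came with the identifiers when the genes were chosen, and the count table itself lists identifiers only.

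Full-thickness esophagus was taken on day 28 from 6 male, wild-type Sprague-Dawley rats, an outbred laboratory strain, and polyadenylated RNA was sequenced with 1 library per animal. The rats were 8 to 10 weeks old and weighed 250 ± 20 g, per the labels. The 3 control rats were left untreated. In the 3 injured rats a 3D-printed device was passed through the mouth to a depth of about 9 to 10 cm and moved back and forth 8 to 10 times, for about 3 to 5 s each time. The labels name no sham procedure for the controls, so the effects of the friction and of passing the device cannot be told apart. The series title presents this as a model of stricture, in which scarring narrows the esophagus. The libraries held between 14181903 and 18376578 counts. The tissue holds many cell types, and fewer or more matrix-producing cells cannot be told apart from less or more RNA per cell. Marker genes of those cell types were not analysed here, because the identifiers could not be paired with symbols.

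Fibronectin is secreted as a dimer and is assembled into fibrils by cells through integrin receptors, and these fibrils form an early scaffold on which collagen is deposited. Matricellular proteins sit in the matrix without being its main structural parts and change how cells attach to it. Small leucine-rich proteoglycans bind collagen fibrils and regulate their diameter and spacing. In connective tissue these genes are expressed mainly by fibroblasts, and several of them are used as indicators of scarring.

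All 5 genes had a higher mean in injured than in control esophagus, and the difference was graded. Postn differed most, by 4.68-fold in the fitted model. Fn1 followed at 2.25-fold, Lum at 1.87-fold, Sparc at 1.65-fold and Dcn at 1.30-fold. In Fn1, Sparc, Postn and Lum every injured animal lay above every control animal, whereas Dcn overlapped. None of these differences passed the test after correction over all genes (edgeR quasi-likelihood F test, Benjamini-Hochberg adjusted p from 0.13 to 0.36). Same-numbered libraries were also fitted as pairs, a pairing that comes from these same counts and not from a label. In that fit edgeR called Postn (adjusted p = 0.042). DESeq2 with these pairs, a fit added after the data were seen, called Sparc, Postn and Lum, as described below. With these pairs, edgeR called 1.98% of all tested genes higher, and DESeq2 called 5.91% of the genes it tested higher. The edgeR test without pairs called 0.711% of all tested genes higher and 0.642% lower at an adjusted p under 0.05. Of the 1599 genes with at least 100 CPM on average, it called 0.876% higher. At an unadjusted p under 0.05, Fn1, Postn and Lum passed, 3 of the 5 genes, against 9.98% of all tested genes higher in injured animals by that rule. Groups did not overlap, with injured animals higher, in 4 of the 5 genes and in 13.5% of all tested genes. Injured animals were lower without overlap in 0 of the 5 and in 15.6%. The 5 genes were chosen with earlier results of these data known, so these shares are a description and not a test.

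**Figure D1:**
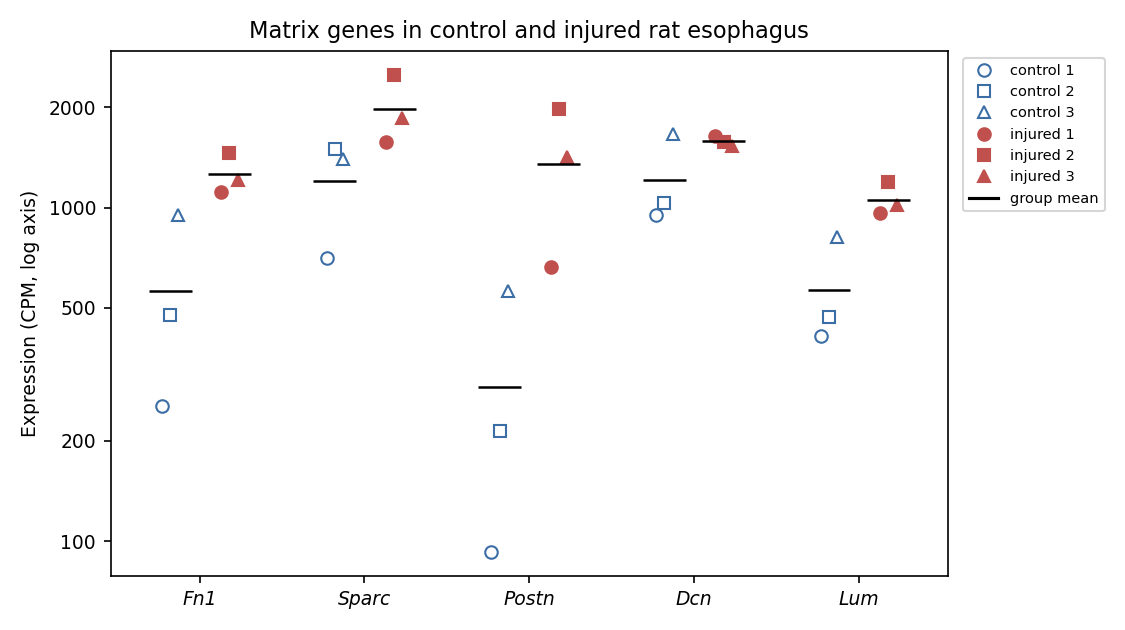
Expression of the 5 genes in each library, in CPM (log axis), with controls as open blue symbols, injured animals as filled red symbols, the replicate number as the symbol shape and the group mean as a black line. Control replicate 1 is the lowest library for every gene, and in Dcn control replicate 3 (1657 CPM) lies above all 3 injured animals.

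Fn1 encodes the adhesive glycoprotein fibronectin. Its expression is given in CPM, the gene's counts per 1000000 counts of the scaled library. Control replicates 1 to 3 had 254, 476 and 953 CPM. Injured replicates 1 to 3 had 1116, 1461 and 1207 CPM. The controls were spread widely, and control replicate 3 came close to the lowest injured animal. The control mean was 561 ± 357 CPM and the injured mean 1261 ± 179 CPM (SD, n = 3 each). The log2 fold change, injured minus control, was 1.17 (standard error 0.44) with a 95% interval from 0.11 to 2.22 (edgeR, adjusted p = 0.20, unadjusted p = 0.034). It was 0.82 without control replicate 1 and 1.80 without control replicate 3 (edgeR, adjusted p = 0.17 and 0.10). The injured animal exceeded the control of the same number by a log2 difference of 2.13, 1.62 and 0.34 for numbers 1 to 3, and with these numbers as a block Fn1 was not called (edgeR, adjusted p = 0.091).

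Sparc encodes osteonectin, a collagen-binding matricellular protein needed for orderly collagen deposition. Its expression was 707, 1501 and 1400 CPM in control replicates 1 to 3. The injured animals had 1574, 2504 and 1862 CPM. Control replicate 1 was far below the other controls, and the highest control, replicate 2, was only 1.05-fold below the lowest injured animal. The means were 1203 ± 433 and 1980 ± 476 CPM (SD, n = 3 each). The log2 fold change was 0.72 (standard error 0.31), and its 95% interval, from -0.03 to 1.47, included no change (edgeR, adjusted p = 0.25, unadjusted p = 0.057). Without control replicate 1 the log2 fold change was 0.45 (edgeR, adjusted p = 0.22). With the replicate number as a block, DESeq2 called Sparc higher (adjusted p = 0.00058) and edgeR did not (adjusted p = 0.066). The log2 difference between same-numbered animals was 1.16, 0.74 and 0.41 for numbers 1 to 3, higher in the injured animal each time.

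For Sparc, the 250 bases before the start of the gene are shown because RefSeq places them wholly outside the transcribed region. They lie at chr10:40038817-40039066 of the GRCr8 assembly, on the minus strand, and capitals mark matches to the motifs named below.
Sparc: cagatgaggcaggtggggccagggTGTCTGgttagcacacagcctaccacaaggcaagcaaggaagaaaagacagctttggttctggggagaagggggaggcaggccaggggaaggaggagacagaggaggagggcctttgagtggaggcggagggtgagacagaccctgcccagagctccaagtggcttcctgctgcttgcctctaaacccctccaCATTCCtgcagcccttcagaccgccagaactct
Both strands were searched for CAGACA (the core bound by SMAD proteins), CATTCC (TEAD), TGANTCA (AP-1), TATAAA (the TATA box) and the CArG box (serum response factor), and no matches overlapped. CAGACA was found once, on the opposite strand, and CATTCC once. Among 33469 rat promoter windows of this length, 17.2% held CAGACA and 12.1% held CATTCC. A match describes the letters only and shows no binding.

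Postn encodes periostin, a matricellular protein that binds integrins, fibronectin and collagen and is produced by activated fibroblasts in healing wounds. It had the widest range of the 5 genes. The controls had 92.9, 214 and 560.4 CPM for replicates 1 to 3. The injured animals had 663, 1979 and 1414 CPM. The groups did not overlap, but control replicate 3 was 6.03-fold above control replicate 1, and injured replicate 1 was only 1.18-fold above control replicate 3. The means were 289 ± 243 and 1352 ± 660 CPM (SD, n = 3 each). The log2 fold change was 2.23 (standard error 0.70) with a 95% interval from 0.57 to 3.88 (edgeR, adjusted p = 0.14, unadjusted p = 0.016). By log2 fold change Postn ranked 182 among the 14481 tested genes.

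Deviations from the group means of same-numbered control and injured libraries correlated across genes at 0.37, 0.37 and 0.104 for numbers 1 to 3. The last was barely over the limit of 0.1 set for treating them as pairs. In number 3, Fn1, Sparc, Dcn and Lum were above the control mean in the control and below the injured mean in the injured animal. Only Postn was above the mean in both. The replicate number was also fitted as a block. In that fit Postn was called higher, at a log2 fold change of 2.47 ± 0.39 (standard error, edgeR, adjusted p = 0.042). It was the only one of the 5 genes called by edgeR with the block, which called 1.98% of all tested genes higher. The injured animal exceeded the control of the same number by a log2 difference of 2.84, 3.21 and 1.34 in pairs 1 to 3. No label says what a replicate number stands for. Without control replicate 3 the unblocked log2 fold change was 3.15, and without control replicate 1 it was 1.80 (edgeR, adjusted p = 0.11 and 0.14).

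RefSeq starts Postn at more than one position, and the window before the start used here lies inside a longer model of the gene. Only 30 bases of it are shown, at chr2:140678005-140678034 of GRCr8 on the plus strand. Capitals mark a match to TATAAA, which describes the letters only.
Postn: agcccagagctcTATAAAttcagctctcta
TATAAA was present in 12.9% of the promoter windows. It was not found in the windows of Sparc or Lum, and none of the 5 motifs was found in that of Lum. The Lum window also lies wholly inside a longer model of the gene, so the absence describes that window only.

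Dcn encodes decorin, which coats collagen fibrils and also binds transforming growth factor beta. Its expression was 950.4, 1034 and 1657 CPM in control replicates 1 to 3. The injured animals had 1637, 1573 and 1526 CPM. The injured animals were nearly identical, and control replicate 3 lay above all of them. The means were 1214 ± 386 and 1578 ± 56 CPM (SD, n = 3 each). The log2 fold change was 0.38 ± 0.22 (standard error, edgeR, adjusted p = 0.36, unadjusted p = 0.13). Its 95% interval, from -0.15 to 0.90, included no change and a difference of up to 1.87-fold. Without control replicate 3 the log2 fold change was 0.68, and without control replicate 1 it was 0.23 (edgeR, adjusted p = 0.11 and 0.52). It was smallest, at 0.16, with sample-weighted limma-voom (adjusted p = 0.59). Between same-numbered animals the log2 difference was 0.78, 0.60 and -0.12.

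Lum encodes lumican, a small leucine-rich proteoglycan that limits the lateral growth of collagen fibrils. Its expression was 411, 471 and 814 CPM in control replicates 1 to 3. The injured animals had 964, 1190 and 1017 CPM. All 3 injured animals were above control replicate 3, the lowest of them by 1.18-fold. The means were 565 ± 217 and 1057 ± 118 CPM (SD, n = 3 each). The log2 fold change was 0.90 (standard error 0.27) with a 95% interval from 0.27 to 1.53 (edgeR, adjusted p = 0.13, unadjusted p = 0.012). Lum had the smallest p of the 5 genes although Postn and Fn1 differed by more. DESeq2 called Lum higher (log2 fold change 0.91, adjusted p = 0.019) and none of the other 4 genes, and it called 4.7% of all genes it tested higher. With the replicate number as a block, DESeq2 called Lum (adjusted p = 0.00045) and edgeR did not (adjusted p = 0.075). The injured animal exceeded the control of the same number by 1.23, 1.34 and 0.32 on the log2 scale.

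**Figure D2:**
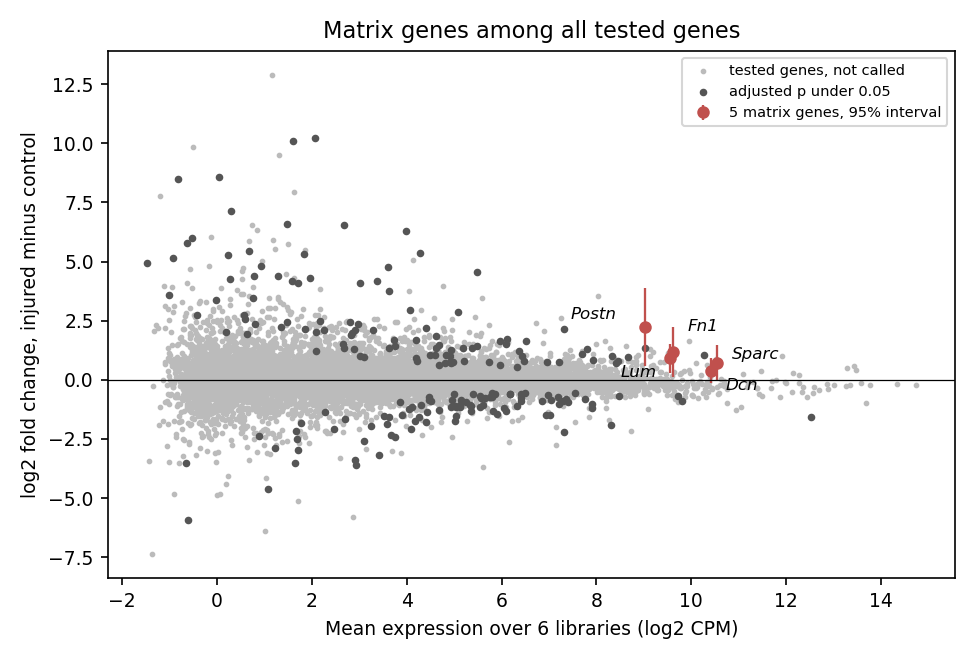
Log2 fold change, injured minus control, against mean expression (log2 CPM over 6 libraries) for all 14481 tested genes, with called genes in dark grey and the 5 matrix genes in red with 95% intervals. The 5 genes lie among the abundant transcripts and above zero, and the intervals of Sparc and Dcn cross zero.

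The 5 genes were abundant, with ranks from 50 for Sparc to 119 for Lum among the tested genes. Their median log2 fold change was 0.90, against -0.01 over all tested genes. By the ratio of group means, Fn1 and Postn were over 2-fold higher in injured animals. The same was true of 2.13% of the genes with at least 100 CPM. The largest unadjusted p that passed the correction was 0.00067, well below the 0.012 of Lum. Summed over the 5 genes, control replicates 1 to 3 had 2416, 3696 and 5385 CPM. The injured animals had 5953, 8706 and 7025 CPM. The lowest injured animal was thus near the highest control. The summed means were 3832 ± 1489 and 7228 ± 1388 CPM (SD, n = 3 each), a ratio of 1.89.

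Much of the spread lay among the untreated animals. Control replicate 1 was the lowest of all 6 libraries in each of the 5 genes, as it was in 17.6% of the genes with at least 100 CPM. Control replicate 3 was the highest control in Fn1, Postn, Dcn and Lum, and replicate 2 was the highest in Sparc. The highest control exceeded the lowest by 3.75-fold in Fn1, 2.12-fold in Sparc, 6.03-fold in Postn, 1.74-fold in Dcn and 1.98-fold in Lum. A control span over 2-fold was thus seen in 3 of the 5 genes and in 12.4% of the genes with at least 100 CPM. Among injured animals the span was 1.31-fold in Fn1, 1.59-fold in Sparc, 2.98-fold in Postn, 1.07-fold in Dcn and 1.23-fold in Lum. Only Postn was over 2-fold there, as were 4.63% of the abundant genes. By this fold, all 5 genes were more spread in controls than in injured animals, which was also the case in 72.9% of the abundant genes. Whether the spread differed between the groups was not tested.

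Ratios between the 5 genes within a library do not depend on how libraries are scaled, and they describe how unequally the genes differed in these animals. These are ratios of counts, not corrected for transcript length, so only their difference between libraries has a meaning. In 5 of the 10 pairs the ratio did not overlap between the groups, against 34.7% of all pairs of genes with at least 100 CPM. All 10 pairs are built from the same 5 genes, so they are not separate observations. With 3 animals against 3 a two-sided exact permutation test cannot give a p below 0.10. Each of these 5 pairs had that smallest value (0.20 after adjustment over the 10 pairs), so the test can neither establish nor dismiss a difference between genes, and the ratios are given as a description. The test did not use the replicate numbers as pairs.

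The ratio of Postn to Dcn differed most. It was 0.0977, 0.207 and 0.338 in the controls. The injured animals had 0.405, 1.26 and 0.927, in replicate order. Every injured animal was higher, and the mean ratio was 4.11-fold higher on the log scale. The ratio of Postn to Sparc was 3.23-fold higher, that of Postn to Fn1 2.14-fold higher and that of Fn1 to Dcn 1.92-fold higher, all without overlap. For Fn1 to Dcn the log2 difference was 0.94, and 0.63 without control replicate 1.

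The ratio of Lum to Dcn was the steadiest among controls, at 0.433, 0.455 and 0.492, although Dcn spanned 1.74-fold and Lum 1.98-fold there. It was 0.589, 0.756 and 0.666 in injured replicates 1 to 3. The injured animals were 1.45-fold higher, a log2 difference of 0.54. The SD of the log2 ratio was 0.09 in controls, the smallest control SD of the 10 pairs, and 0.18 in injured animals. Dcn and Lum are next to each other on chromosome 7 of the GRCr8 assembly, with 0 annotated genes between them, followed by the related proteoglycan genes Kera and Epyc. The other 5 pairs overlapped. The mean ratio of Postn to Lum was 2.83-fold higher in injured animals. That of Fn1 to Sparc was 1.51-fold higher, of Fn1 to Lum 1.32-fold, of Sparc to Dcn 1.27-fold and of Lum to Sparc 1.14-fold (exact permutation p from 0.20 to 0.80). These smaller differences changed in size when single animals were left out. The log2 difference of Fn1 to Sparc was 0.60, and it was 0.38 without control replicate 2 and 0.93 without control replicate 3. That of Fn1 to Lum fell from 0.40 to 0.13 without control replicate 1. That of Sparc to Dcn was 0.34, with 0.15 and 0.64 without control replicates 1 and 2, and 0.52 and 0.16 without injured replicates 1 and 2. For Lum to Sparc the direction turned without control replicate 2.

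**Figure D3:**
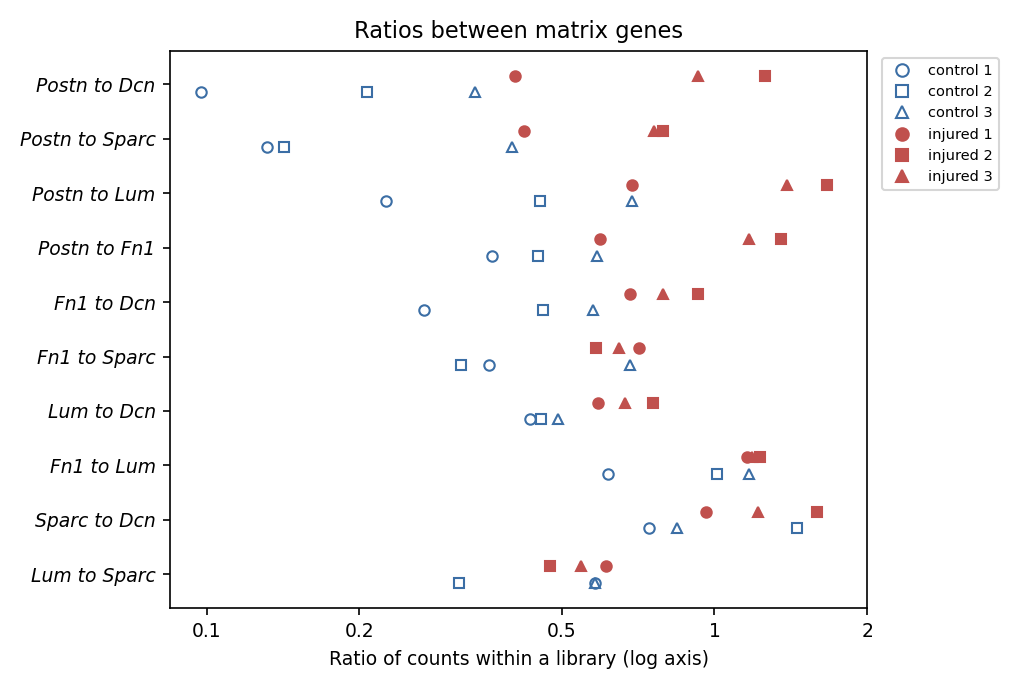
Ratio of the counts of 2 genes within each library (log axis) for the 10 pairs, ordered by the difference between the groups, with controls as open blue and injured animals as filled red symbols. The Postn to Dcn ratio separates most, and the Lum to Dcn ratio is narrow among controls (0.433 to 0.492) and higher in all 3 injured animals.

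Other fits called some of the genes. DESeq2 with the replicate block, a fit chosen after the data were seen, called Sparc, Postn and Lum higher (adjusted p = 0.00058, 0.00019 and 0.00045), and it called 5.91% of all genes it tested higher. Fn1 and Dcn passed in none of the 18 alternative fits. In Fn1 the lowest adjusted p was 0.0501, with DESeq2, just over the threshold. No gene changed direction in any of the 18 fits.

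**Figure D4:**
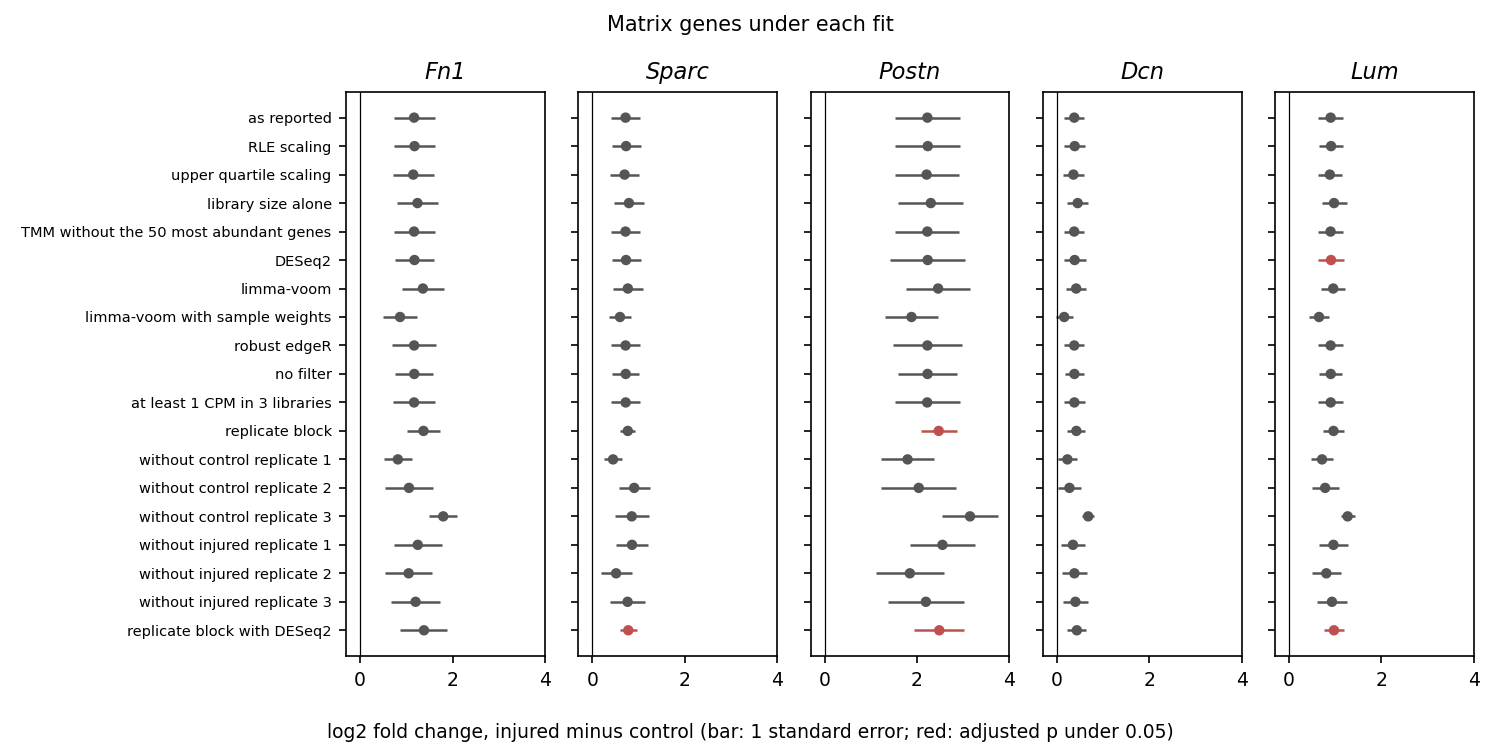
Log2 fold change of each gene, injured minus control, in the reported fit and the 18 alternatives, with 1 standard error on either side and fits with an adjusted p under 0.05 in red. Every point lies above zero, Postn passes in 2 fits, Lum in 2 and Sparc in 1, and the fits without control replicate 3 give the largest differences for Fn1, Postn, Dcn and Lum.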

How the data were processed

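The authors deposited raw counts per gene for each animal. The submitters' processing notes name, without their roles, HISAT2 2.2.1, HTSeq 0.6.1, the build Rnor_6.0, DESeq2 1.50.2, fastp 0.24.1 and bcl2fastq 2.20.0.422. Strand setting, annotation release and handling of reads with several matches were not given in the sources used here, so reads of overlapping genes might be merged or split.

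The identifiers were matched to no symbols, since the RefSeq gene table (GRCr8, 47357 genes) held 0 Ensembl identifiers. The listed pathway genes (integrins, other matricellular proteins and proteoglycans, collagens, crosslinking enzymes, the TGF-beta pathway) and cell type markers were therefore not analysed here. Promoter sequences came from RefSeq (GRCr8) by symbol, for 3 of the 5 genes (Sparc, Postn and Lum).

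Genes were filtered with filterByExpr (minimum count 10, minimum total 15), which left 14481 genes holding at least 99.89% of each library's counts. Scaling was by TMM (trimmed mean of M-values, factors 0.963 to 1.03), and injured was compared with control by the quasi-likelihood F test of edgeR 4.0.16 in R 4.3.3. Standard errors were derived from the log2 fold change and F, and 95% intervals used the fit's degrees of freedom. The Benjamini-Hochberg adjustment ran over all tested genes. The test was checked on simulated counts. The samples are separate animals.

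Deviations from the group means of same-numbered libraries correlated across genes at 0.37, 0.37 and 0.10 (0.104 to 3 decimals), each over the 0.1 that was set for treating them as pairs. The pairing comes from the data, not from a label.

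The members, lists and tests were chosen with earlier results of these data known. All 5 genes are described, and the genes most like them were those with the smallest root mean square difference in centred log2 CPM (prior count 2) among genes of at least 10 CPM. Alternatives were other scalings, filters, DESeq2 1.42.0, limma-voom 3.58.1, robust edgeR, the replicate block and each library left out.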

Additional observations from a re-analysis of the deposited data

How the results depend on the processing

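The direction of all 5 genes held in each of the 18 alternative fits, and Fn1 and Dcn kept their side of the threshold in all of them. With the replicate block Postn was called (edgeR, adjusted p = 0.042), which made 1 gene of the 5, against 1.98% of all tested genes higher. DESeq2 called 1 (Lum, adjusted p = 0.019), against 4.7% of the genes it tested higher. DESeq2 with the replicate block, added after the data were seen, called 3, against 5.91% of the genes it tested higher. Its adjusted p was 0.00058 for Sparc, 0.00019 for Postn and 0.00045 for Lum. Both fits of limma-voom called 0 of the 5, and with sample weights the log2 fold change of Dcn was 0.16 (adjusted p = 0.59), the lowest of its 18 alternatives. The block changed no other call of the 5 genes under edgeR.

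Leaving out 1 library gave 0 calls among the 5 genes each time. The log2 fold change then ranged from 0.82 to 1.80 in Fn1, 0.45 to 0.91 in Sparc, 1.80 to 3.15 in Postn, 0.23 to 0.68 in Dcn and 0.72 to 1.27 in Lum. The Lum to Sparc ratio differed by a log2 value of -0.10 without control replicate 2 and by up to 0.34 without another library, against 0.19 with all 6. The summed level was 1.59 to 2.38 times that of controls.

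Over all genes, 103 were called higher and 93 lower by edgeR. The other counts that differed by over 1.5 times were 756 and 641 with DESeq2, 55 higher with limma-voom, 344 and 494 with its sample weights, 287 and 259 with the replicate block and 953 and 628 with DESeq2 and the block. Leaving out 1 library gave 2 to 134 higher and 0 to 200 lower, the fewest without injured replicate 3. The cause was not tested.

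The lowest count of any of the 5 genes in a library was 1548. No alternative with reduced depth was run. A missed threshold does not show equal levels.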

Other observations

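The genes most like the mean profile of the 5 genes were sought among 9261 genes with at least 10 CPM on average, by the root mean square difference of centred log2 CPM over the 6 libraries. The nearest was ENSRNOG00000014258, at 0.06, with 5.10, 8.49 and 14.0 CPM in control replicates 1 to 3 and 16.5, 24.2 and 22.0 CPM in injured replicates 1 to 3. The next was ENSRNOG00000032844, at 0.07, with 22.2, 36.8 and 64.4 CPM in controls and 71.3, 109 and 97.6 CPM in injured animals. Both had the same order of animals as the sum of the 5 genes, with control replicate 1 lowest and injured replicate 2 highest. They were picked by their levels in these same libraries, so this shared order was largely built in. Neither passed the test (edgeR, adjusted p = 0.14 and 0.15).

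The 5 genes were not each other's closest matches. Lum ranked 56 of 9260 among the genes nearest to Fn1, and Fn1 ranked 41 of 9260 among those nearest to Postn. Dcn ranked 166 of 9260 among the genes nearest to Lum, while Postn ranked 9093 of 9260 among those nearest to Dcn. This measure counts the size of a difference as well as its shape, so a gene with a small range such as Dcn is far from one with a large range such as Postn.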
